A study of Homo sapiens with 9 samples.

Results

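Integrins are the receptors by which cells hold on to the extracellular matrix, and each is a dimer of 1 alpha and 1 beta subunit. The 10 integrin subunit genes described here are those typical of epithelium, 5 alpha genes (ITGA2, ITGA3, ITGA5, ITGA6 and ITGAV) and 5 beta genes (ITGB1, ITGB4, ITGB5, ITGB6 and ITGB8). They were taken by symbol from a named list, out of 18404 genes measured. Each was read by a single transcript cluster, whose value summarises its probes. RNA came from MCF10A, an established, non-tumorigenic line of human mammary epithelial cells, on whole-transcript arrays with 3 arrays in each of 3 groups. The control cells carried the empty vector according to the design text, although one label calls them parental. The WT-HER2 cells expressed wild-type HER2, the receptor tyrosine kinase encoded by ERBB2, and the Delta-HER2 cells a splice variant of it. All groups were grown in medium with 5% horse serum, 20 ng/ml epidermal growth factor, hydrocortisone, cholera toxin and insulin. They then spent 16 hours in medium with antibiotics as the one named supplement, so with no serum named. The labels do not say whether a line was a clone or a pool, which promoter drove the transgene, or whether the arrays of a group came from separate cultures, so p-values measure the spread between these arrays.

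An alpha subunit does not reach the cell surface alone: it pairs with a beta subunit, and the pair decides what the receptor binds. ITGB1 accepts many alpha partners, giving collagen receptors with ITGA2, laminin receptors with ITGA3 or ITGA6, and the classical fibronectin receptor with ITGA5. ITGAV joins ITGB1, ITGB5, ITGB6 or ITGB8 in receptors for matrix proteins with an RGD motif, and its dimers with ITGB6 and ITGB8 bind and activate latent TGF-beta. ITGB4 pairs with ITGA6 alone, and that dimer anchors basal epithelial cells to laminin in hemidesmosomes.

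Promoter sequence is shown for ITGA5 and ITGB6, the alpha and the beta gene whose group means lay farthest apart, because the stretches differ sharply in composition. RefSeq's promoter table (GRCh38.p14) held 8 of the 10 genes, not ITGA3 and ITGB4, and 4 of the 8 had several start sites. The one start listed for ITGB8 lies inside the span RefSeq gives that gene, so its window may not be upstream of all its transcripts. Each stretch below runs 5′ to 3′ on the gene's strand from position −249 to position 1, the first transcribed base. ITGA5 lies at chr12:54419266-54419515 and ITGB6 at chr2:160200272-160200521, both on the minus strand. Capitals mark matches to the motifs that were searched.
ITGA5: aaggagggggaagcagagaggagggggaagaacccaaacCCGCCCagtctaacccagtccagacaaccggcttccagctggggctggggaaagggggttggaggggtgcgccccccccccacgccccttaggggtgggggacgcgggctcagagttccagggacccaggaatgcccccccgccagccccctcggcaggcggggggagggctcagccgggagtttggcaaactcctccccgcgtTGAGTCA
ITGB6: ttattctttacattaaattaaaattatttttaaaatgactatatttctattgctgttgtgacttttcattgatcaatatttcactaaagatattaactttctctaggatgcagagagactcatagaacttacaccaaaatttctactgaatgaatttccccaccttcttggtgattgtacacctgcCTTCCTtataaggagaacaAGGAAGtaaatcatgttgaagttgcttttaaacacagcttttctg
The ITGA5 stretch was 69.6% G and C and the ITGB6 stretch 30.4%, against a median of 58.0% over 35116 promoters, of which 1.94% had a share as low as that of ITGB6. The motifs were TGANTCA (AP-1, the same on both strands), AGGAAG and CCGGAA (ETS types), GGGCGG (the GC box) and TATAAA, each searched on both strands of the window of 300 bases spanning the start. In ITGA5 the AP-1 letters stand at −6 to 1, a match that 7.71% of all promoters hold somewhere in the window, and a GC box in reverse at −210 to −205 (45.0% of promoters). ITGA5 was the single gene among the 8 with the AP-1 letters in a window, and it also has AGGAAG at 20 to 25, outside the stretch shown. ITGB6 has AGGAAG in reverse at −63 to −58 and forward at −44 to −39 (33.6% of promoters) and none of the other motifs. These are matches of letters, and no measurement here bears on whether a factor binds them.

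The arrays were first checked against their labels. Of 7 basal epithelial markers analysed, 7 lay above background, which was gauged as a log2 level of 3.18, the 0.95 quantile of 340 olfactory receptor genes; KRT5 averaged 11.75. Of the markers of other cells 5 of 7 luminal, 5 of 7 fibroblast, 1 of 6 endothelial and 3 of 6 blood and immune genes lay above it. Among those above were the luminal KRT18 (mean 10.26), KRT8 (9.91) and GATA3 (7.05), and also CD14 (8.09) and DCN (7.32). LUM, PDGFRA, VWF, CDH5, PTPRC and CD3E were among those below. Several markers differed between groups: with Delta-HER2 the epithelial cadherin gene CDH1 fell from 9.09 to 8.06 (adjusted p = 5.06e-06), PECAM1 rose from 3.00 to 3.90 (1.31e-04) and FAP from 5.52 to 6.22 (0.0117). With WT-HER2 DCN rose from 7.15 to 7.73 (adjusted p = 0.0179) and KRT14 fell from 10.12 to 9.44 (0.00234). Of the luminal markers, GATA3 fell from 7.48 to 6.45 with Delta-HER2 (adjusted p = 2.47e-05). KRT18 rose from 9.98 in control to 10.50 with Delta-HER2 (adjusted p = 2.73e-04) and to 10.32 with WT-HER2 (0.0377). The part of these markers in the integrin results was not tested. ERBB2 had a mean of 6.99 without a HER2 transgene, 7.98 with WT-HER2 and 8.95 with Delta-HER2. Its 3 WT-HER2 values were identical, so their SD is no measure of precision. Between the lines ERBB2 was higher with Delta-HER2 by 0.98 (limma, adjusted p = 8.57e-06). The HER2 form and the ERBB2 level thus differed together between the lines, and their separate parts in the integrin results were not tested. Control replicate 1 and WT-HER2 replicate 3 stood apart from the other arrays of their groups on the second axis of variation (scores 10.34 and 32.07, with 16.6% of the variance).

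All values below are log2 levels made by the authors with RMA, and a difference of 1 is a doubling. Differences were tested with limma on all 9 arrays, and adjusted p means Benjamini-Hochberg adjustment over the 18404 genes; genes under 0.05 count as called. Levels of different genes were not compared, since probes differ in their response. In bulk RNA, fewer cells with a transcript and less transcript per cell cannot be told apart.

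In Delta-HER2 cells 5 of the 10 integrin genes rose and 1 fell against control. The gains were largest for ITGA5, ITGB6 and ITGA3, smaller for ITGB5 and ITGB1, and the gene that fell was ITGB8. Over all genes 25.4% were called in this comparison, 13.6% higher and 11.7% lower, so calls were common and 6 of 10 is to be read beside that share. The median difference of the 10 was 0.29, beside −0.01 over all genes. In WT-HER2 cells 2 of the 10, ITGA5 and ITGB5, rose and 0 fell, where 1.68% of all genes were called, 0.777% higher and 0.902% lower; their median difference was −0.01 beside 0.01 over all genes. Among the 8 not called, limma's unadjusted p was below 0.05 for 3 that were lower (ITGA6, ITGB6 and ITGB8) and 1 that was higher (ITGA3). The share of all genes below that looser threshold was not counted, so none of these is read as a change. The count over all genes in that comparison, 309, was 129 without control replicate 2, 126 without control replicate 3, 155 without WT-HER2 replicate 1 and 152 without WT-HER2 replicate 2. Between the HER2 lines 6 of the 10 were called, 4 higher and 2 lower in Delta-HER2 cells, where 22.8% of all genes were called, 13.4% higher and 9.35% lower. The arrays of the groups compared did not overlap for 8 of the 10 with WT-HER2 (14.0% of all genes), for 10 of 10 with Delta-HER2 (37.0%) and for 6 of 10 between the lines (34.7%). Both comparisons with control share the same control arrays, so their values stand side by side and the difference between the lines is taken from its own contrast.

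ITGA5, the alpha chain of the fibronectin receptor, had levels of 6.97, 7.02 and 7.01 on the control arrays, 7.63, 7.65 and 7.58 on the WT-HER2 arrays and 8.45, 8.39 and 8.55 on the Delta-HER2 arrays. The groups formed 3 separate steps with no overlap. The 1.53-fold rise in WT-HER2 cells was a log2 difference of 0.62 (SE 0.07, adjusted p = 0.00205), and the 2.75-fold rise in Delta-HER2 cells one of 1.46 (SE 0.07, adjusted p = 6.72e-07). Delta-HER2 cells exceeded WT-HER2 cells 1.79-fold (0.84, SE 0.07, adjusted p = 1.95e-05). It was the single member called in all 3 contrasts, and it was called under each of the 19 alternative analyses in each contrast. By absolute difference it ranked 207th of 18404 genes with WT-HER2 and 375th with Delta-HER2.

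ITGA3, the alpha chain of the main epithelial receptor for laminin-332, stood at 8.52, 8.58 and 8.56 in control, 8.72, 8.81 and 8.68 in WT-HER2 and 9.72, 9.78 and 9.78 in Delta-HER2 cells. The Delta-HER2 arrays lay well above all others, and the WT-HER2 arrays slightly above the control arrays. ITGA3 rose 2.31-fold with Delta-HER2 (1.21, SE 0.06, adjusted p = 1.47e-06) and was 2.04-fold higher there than in WT-HER2 cells (1.03, SE 0.06, adjusted p = 4.92e-06). With WT-HER2 the difference of 0.18 did not pass (95% interval 0.04 to 0.33, adjusted p = 0.313).

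ITGA2, the alpha chain of a collagen receptor, differed less. Its levels were 8.71, 8.85 and 8.85 in control, 8.71, 8.85 and 8.56 in WT-HER2 and 9.14, 8.86 and 9.13 in Delta-HER2 cells; control replicates 2 and 3 and WT-HER2 replicate 2 held identical values. Delta-HER2 replicate 2 lay close to the control arrays and the remaining Delta-HER2 arrays farther above them. Against control neither line passed (0.24 with Delta-HER2, adjusted p = 0.132, and −0.10 with WT-HER2, adjusted p = 0.783). The Delta-HER2 difference passed with array weights (0.25, adjusted p = 0.0329) and without Delta-HER2 replicate 2 (0.33, 0.0464). Between the lines it was higher with Delta-HER2 (0.34, SE 0.10, adjusted p = 0.0409). It was no longer called when control replicate 2 was left out (adjusted p = 0.0624), nor without control replicate 3 (0.0608), WT-HER2 replicate 1 (0.0912), WT-HER2 replicate 3 (0.114), Delta-HER2 replicate 1 (0.144) or Delta-HER2 replicate 3 (0.140).

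ITGA6, a laminin-binding alpha chain, read 10.18, 10.34 and 10.33 in control, 10.03, 10.13 and 9.90 in WT-HER2 and 10.14, 10.11 and 10.14 in Delta-HER2 cells. The control arrays were the highest, and both HER2 lines overlapped each other. It did not pass in any contrast: −0.26 with WT-HER2 (95% interval −0.44 to −0.08, adjusted p = 0.199), −0.15 with Delta-HER2 (−0.33 to 0.03, adjusted p = 0.227) and 0.11 between the lines (adjusted p = 0.402). With control replicate 1 and WT-HER2 replicate 3 left out together, the Delta-HER2 difference was −0.20 and passed (adjusted p = 0.0398), as it did with array weights (−0.19, adjusted p = 0.0372).

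ITGAV, the alpha chain that ITGB5, ITGB6 and ITGB8 depend on, varied least of the 10. Its levels were 8.77, 8.83 and 8.96 in control, 8.72, 8.75 and 8.72 in WT-HER2 and 8.76, 8.67 and 8.74 in Delta-HER2 cells. Its differences from control were −0.12 with WT-HER2 (95% interval −0.28 to 0.03, adjusted p = 0.576) and −0.13 with Delta-HER2 (−0.29 to 0.03, adjusted p = 0.255). Between the lines its interval ran from −0.16 to 0.15. After quantile normalization the Delta-HER2 difference was −0.23 and passed (adjusted p = 0.0184).

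ITGB6, an epithelial beta chain known to rise in injured and malignant epithelium, had the widest spread between groups. It read 6.87, 7.01 and 7.01 in control (the last 2 identical), 6.54, 6.66 and 6.17 in WT-HER2 and 8.22, 8.06 and 8.23 in Delta-HER2 cells. Every WT-HER2 array lay below and every Delta-HER2 array above the control arrays. ITGB6 rose 2.31-fold with Delta-HER2 (1.21, SE 0.12, adjusted p = 7.02e-05) and was 3.29-fold higher there than in WT-HER2 cells (1.72, SE 0.12, adjusted p = 1.05e-05). The WT-HER2 difference from control was −0.51 (SE 0.12) and did not pass (adjusted p = 0.0964), although it did after quantile normalization (−0.47, adjusted p = 0.0322) and with array weights (−0.43, adjusted p = 0.0199). WT-HER2 replicate 3, which stood apart over all genes, was the lowest array; without it the difference was −0.36 (adjusted p = 0.124).

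ITGB8, a beta chain whose dimer with ITGAV binds latent TGF-beta, moved the other way. Levels were 9.09, 9.20 and 9.18 in control, 8.87, 8.99 and 8.88 in WT-HER2 and 8.18, 8.09 and 8.31 in Delta-HER2 cells, in 3 groups that did not overlap. It fell by 0.96 with Delta-HER2, or 1.95-fold (SE 0.08, adjusted p = 1.72e-05), and was 1.65-fold lower there than in WT-HER2 cells (−0.72, SE 0.08, adjusted p = 1.35e-04). With WT-HER2 the difference of −0.24 did not pass (95% interval −0.42 to −0.06, adjusted p = 0.251).

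ITGB5, whose dimer with ITGAV binds vitronectin, was higher in both HER2 lines. It stood at 7.33, 7.41 and 7.45 in control, 7.75, 7.79 and 7.71 in WT-HER2 and 7.73, 7.84 and 7.69 in Delta-HER2 cells. Arrays of both lines covered the same range, above all control arrays. The gene rose with Delta-HER2 (0.36, SE 0.07, adjusted p = 0.00423) and with WT-HER2 (0.35, SE 0.07, adjusted p = 0.0418), and between the lines the 95% interval of the difference was −0.15 to 0.16. The WT-HER2 call was lost without any 1 of the 9 arrays (adjusted p from 0.0502 to 0.147).

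ITGB1, the common beta chain, read 8.79, 8.86 and 8.90 in control, 9.09, 8.99 and 8.86 in WT-HER2 and 9.27, 9.05 and 9.27 in Delta-HER2 cells. Only the Delta-HER2 arrays lay wholly above the control arrays. ITGB1 rose 1.27-fold with Delta-HER2 (0.35, SE 0.09, adjusted p = 0.0174), but was not called when control replicate 1 was left out (adjusted p = 0.0524), nor without control replicate 2 (0.0503), Delta-HER2 replicate 1 (0.0697) or Delta-HER2 replicate 3 (0.0694). The other differences were 0.13 with WT-HER2 (adjusted p = 0.651) and 0.21 between the lines (adjusted p = 0.129).

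ITGB4, the hemidesmosomal beta chain, had tight groups: 10.20, 10.22 and 10.23 in control, 10.24, 10.30 and 10.33 in WT-HER2 and 9.95, 10.08 and 10.04 in Delta-HER2 cells. The WT-HER2 arrays lay just above and the Delta-HER2 arrays below the control arrays. It was lower in Delta-HER2 than in WT-HER2 cells (−0.26, SE 0.06, adjusted p = 0.0154), a call lost without Delta-HER2 replicate 1 (adjusted p = 0.0615). Against control the differences were −0.19 with Delta-HER2 (adjusted p = 0.0554) and 0.07 with WT-HER2 (adjusted p = 0.756). The Delta-HER2 difference passed with a mean-variance trend (adjusted p = 0.0150), with array weights (0.0141) and without WT-HER2 replicate 3 (0.0469).

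The alpha genes were then set beside their known beta partners, in 9 pairs formed by the 10 genes, several of which share ITGB1 or ITGAV. In Delta-HER2 cells against control both partners were called in 2 pairs (ITGA3 with ITGB1 and ITGA5 with ITGB1), the beta gene alone in 6 and neither in 1 (ITGA6 with ITGB4). Of these, 5 pairs rest on the ITGB1 call; where that is lost, both partners are called in 0 pairs, the alpha gene alone in 2, the beta gene alone in 3 and neither in 4. In WT-HER2 cells the alpha gene alone was called in 1 pair, the beta gene alone in 1 and neither in 7. Between the lines 3 pairs had the alpha gene alone called, 3 the beta gene alone and 3 neither. The balance of a pair was followed as the alpha minus the beta level on each array, relative to its control mean, so that only its change between groups is read. Each such change was tested with a two-sided exact permutation test over arrays; 3 arrays against 3 cannot give a p below 0.10, so no single pair could pass.

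Among the ITGB1 pairs the balance lay furthest from control for ITGA5. The ITGA5 balance was 0.38, 0.50 and 0.57 on the WT-HER2 arrays and 1.02, 1.18 and 1.13 on the Delta-HER2 arrays, against −0.04 to 0.02 on the control arrays, so the 3 groups did not overlap (exact permutation p = 0.10 in each contrast). For ITGA3 the balance was −0.08, 0.11 and 0.11 with WT-HER2 and 0.74, 1.03 and 0.81 with Delta-HER2. WT-HER2 arrays thus covered the control range, and Delta-HER2 arrays lay above it. ITGA2 gained no more than ITGB1 (mean change −0.11 with Delta-HER2). ITGA6 and ITGAV shifted against ITGB1 in both lines, by −0.40 and −0.26 with WT-HER2 and by −0.50 and −0.48 with Delta-HER2, and their control arrays did not overlap with either line.

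The ITGAV pairs differed with their beta gene. Relative to ITGB6 the ITGAV balance was 0.29, 0.20 and 0.66 with WT-HER2 and −1.35, −1.27 and −1.38 with Delta-HER2, so the lines lay on opposite sides of the control arrays. Relative to ITGB8 it was 0.15, 0.06 and 0.14 with WT-HER2, overlapping control (−0.07 to 0.08), and 0.89, 0.88 and 0.73 with Delta-HER2. In Delta-HER2 cells the balance therefore shifted toward ITGB6 and away from ITGB8 at an ITGAV level that differed from control by −0.13. Relative to ITGB5 both lines had shifted alike (mean −0.48 in each, difference between them −0.01). For ITGA6 and ITGB4 the balance was lower with WT-HER2 (−0.33, no overlap with control) and was 0.04 with Delta-HER2, where it overlapped control (exact permutation p = 0.50).

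**Figure D1:**
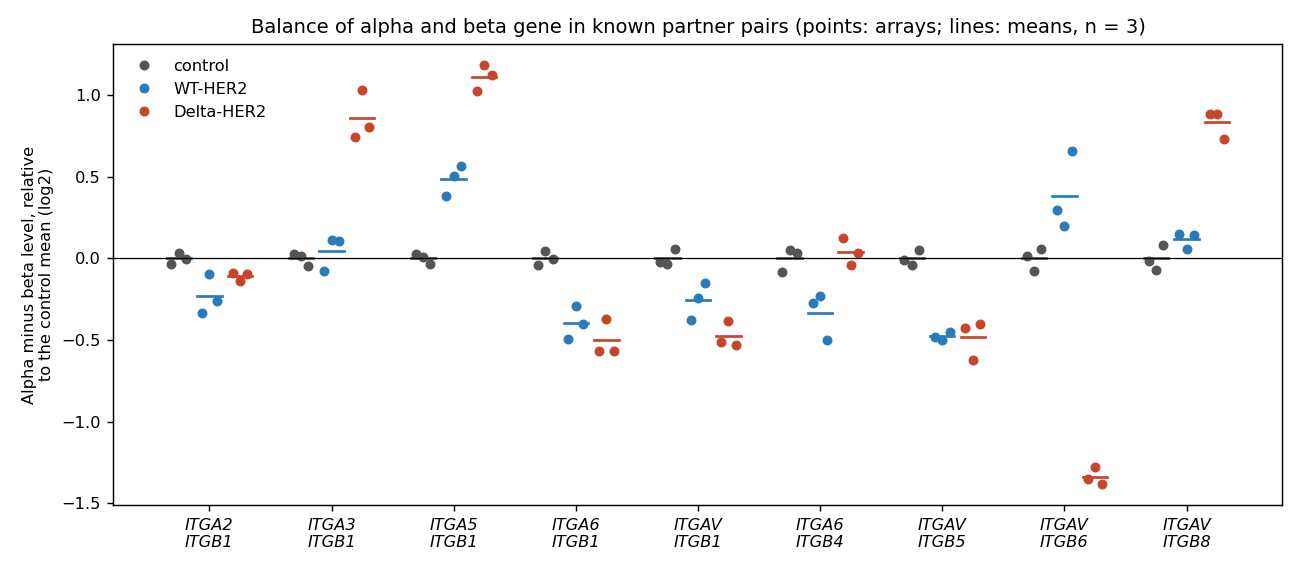
Alpha minus beta log2 level in the 9 partner pairs, each centred on its control mean; points are arrays and lines are group means, n = 3. Delta-HER2 arrays lie highest for ITGA5 with ITGB1 (1.02 to 1.18) and lowest for ITGAV with ITGB6 (−1.38 to −1.27).

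Of 16 integrin subunits outside the 10, 15 were analysed, and 7 of these averaged below the background bound. ITGA10, an alpha chain of a collagen receptor that pairs with ITGB1 and is best known from cartilage, rose in both lines. It read 4.85, 4.60 and 4.72 in control, 5.85, 5.92 and 5.60 in WT-HER2 and 5.13, 5.20 and 5.26 in Delta-HER2 cells. WT-HER2 arrays were highest and Delta-HER2 arrays lay between them and control, without overlap. The rise was 2.09-fold with WT-HER2 (1.07, SE 0.10, adjusted p = 0.00104), a larger difference than that of any of the 10 members in this contrast, and 1.39-fold with Delta-HER2 (0.47, adjusted p = 0.00696). It was lower in Delta-HER2 than in WT-HER2 cells (−0.60, adjusted p = 0.00205). ITGA10 was the 1 of 15 called with WT-HER2, where 1.68% of all genes were called.

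With Delta-HER2 3 of the 15 rose and 1 fell, beside 13.6% and 11.7% of all genes, and the median difference was −0.02. Beside ITGA10, ITGB3, the partner of ITGAV in the vitronectin receptor, rose by 0.40 (adjusted p = 0.0100), from 2.61 to 3.01, levels within the background range. ITGB2, the beta chain of leukocyte integrins, rose by 0.52 (SE 0.13, adjusted p = 0.0156) from 4.60 ± 0.28 to 5.12 ± 0.10 (SD, n = 3), and was not called without Delta-HER2 replicate 3 (0.46, adjusted p = 0.0653). The mean of 6 blood and immune markers, ITGB2 included, ranged over arrays from 4.35 to 4.58 in control and from 4.53 to 4.67 in Delta-HER2 cells; 3 of the 6, CD14, CD68 and ITGB2, lay above background and PTPRC and CD3E did not. CD68 also rose with Delta-HER2, from 6.11 to 6.69 (adjusted p = 0.00286), and their part in the ITGB2 result was not tested. ITGAM, a leukocyte alpha chain, fell by 0.32 (adjusted p = 0.0266) from 3.34 to 3.02, near background, and that call was lost in 6 of the 19 alternatives, among them without control replicate 1 (−0.22) or 3 or any 1 Delta-HER2 array (adjusted p from 0.0531 to 0.0842). Between the lines 1 of the 15, ITGB3, was higher and 2, ITGA10 and ITGAM, were lower in Delta-HER2 cells. Over all genes 22.8% were called there, 13.4% higher and 9.35% lower. The ITGAM call between the lines (−0.29, adjusted p = 0.0463) held in 8 of the 19 alternatives and was lost without control replicate 3 (0.0662) or any 1 WT-HER2 or Delta-HER2 array (0.0794 to 0.129).

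Genes for matrix proteins that integrins bind were measured alongside, 21 of 23 listed. With Delta-HER2 10 rose and 3 fell (median 0.14), with WT-HER2 5 rose and 0 fell (median 0.11), and between the lines 8 were higher and 2 lower with Delta-HER2 (median 0.07); the medians over all genes were −0.01, 0.01 and −0.04. Over all genes the shares higher and lower were 13.6% and 11.7% with Delta-HER2, 0.777% and 0.902% with WT-HER2, and 13.4% and 9.35% between the lines. LTBP1, which stores latent TGF-beta in the matrix, read 7.32, 7.18 and 7.42 in control, 7.87 on all WT-HER2 arrays (identical values) and 9.11, 9.03 and 9.14 in Delta-HER2 cells. Levels rose in steps without overlap, 1.48-fold with WT-HER2 (0.56, adjusted p = 0.00661) and 3.45-fold with Delta-HER2 (1.79, adjusted p = 4.49e-07). TGFB1, the cytokine itself, rose by 0.55 with Delta-HER2 (adjusted p = 0.00427).

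Fibronectin, the ligand of the ITGA5 dimer, is encoded by FN1, whose levels were 7.66, 7.73 and 7.77 in control, 8.00, 8.00 and 7.85 in WT-HER2 and 8.40, 8.35 and 8.40 in Delta-HER2 cells. WT-HER2 replicates 1 and 2 held identical values. FN1 rose 1.59-fold with Delta-HER2 (0.67, SE 0.07, adjusted p = 7.68e-05) and was higher there than in WT-HER2 cells (0.44, adjusted p = 0.00130). TNC, the gene of tenascin-C, rose 3.25-fold with Delta-HER2 (1.70, SE 0.16, adjusted p = 3.65e-05), from 3.72 ± 0.26 to 5.42 ± 0.22 (SD, n = 3). THBS1, the gene of thrombospondin-1, rose in both lines, by 0.96 with WT-HER2 (adjusted p = 7.38e-04) and 1.15 with Delta-HER2 (adjusted p = 8.39e-06). COL4A2, a type IV collagen chain of basement membranes, rose by 0.78 and 1.29. COL4A1, another such chain, rose by 0.57 with WT-HER2, where its values were identical, and by 1.02 with Delta-HER2. CCN1 rose by 1.56 with Delta-HER2 (adjusted p = 1.39e-04) and was higher there than in WT-HER2 cells (1.22, adjusted p = 7.77e-04). With Delta-HER2 the laminin genes LAMB1 (−0.32) and LAMA5 (−0.29) and the type I collagen gene COL1A1 (−0.44, adjusted p = 0.0134) fell; LAMA5 was not called without control replicate 3 (adjusted p = 0.0660) or Delta-HER2 replicate 1 (0.0645), nor COL1A1 without Delta-HER2 replicate 1 (0.0579).

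Of the hemidesmosome partners of ITGA6 and ITGB4, 4 of 7 listed were analysed. DST, the plakin that links this dimer to keratin, read 9.35, 9.56 and 9.56 in control, 9.24, 9.14 and 9.06 in WT-HER2 and 8.66, 8.48 and 8.62 in Delta-HER2 cells. The 3 groups did not overlap, although the WT-HER2 difference from control did not pass (−0.35, adjusted p = 0.112). DST fell by 0.91 with Delta-HER2 (SE 0.09, adjusted p = 5.02e-05) and was lower there than in WT-HER2 cells (−0.56, adjusted p = 0.00123). LAMB3, a chain of laminin-332 also counted among the matrix genes, rose by 0.45 with Delta-HER2 (adjusted p = 0.00185) and by 0.38 with WT-HER2 (adjusted p = 0.0448), the latter call holding in 4 of the 19 alternatives and lost without any 1 of the 9 arrays (0.0508 to 0.193). CD151, a tetraspanin that associates with laminin-binding integrins, rose by 0.32 with Delta-HER2 (adjusted p = 0.0101) and was not called after quantile normalization (0.24, adjusted p = 0.0555). In all 2 of the 4 rose and 1 fell with Delta-HER2, with a median of 0.13, beside 13.6% higher, 11.7% lower and a median of −0.01 over all genes.

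Of 26 genes for integrin activators and adaptors of focal adhesions, 24 were analysed; with Delta-HER2 3 rose and 2 fell (median 0.00), and with WT-HER2 0 rose and 1 fell (median 0.04). The share of all genes called was 25.4% with Delta-HER2, above 5 of 24, and 1.68% with WT-HER2, and the medians over all genes were −0.01 and 0.01. ACTN1, which encodes an actinin that ties integrins to actin, rose 2.94-fold with Delta-HER2, from 8.06 ± 0.05 to 9.61 ± 0.02 (SD, n = 3; 1.56, SE 0.06, adjusted p = 3.00e-07). RSU1, a component of the ILK complex, rose by 0.76 and VCL, the gene of vinculin, by 0.74. The tensin genes TNS3 (−0.95, adjusted p = 1.28e-04) and TNS1 (−0.79, adjusted p = 3.09e-04) fell; tensins bind beta tails. TNS1 was also the 1 gene that fell with WT-HER2 (−0.49, adjusted p = 0.0498), a call that held in 4 of the 19 alternatives and was lost without any 1 array other than Delta-HER2 replicate 2 (0.0642 to 0.186). Between the lines 4 were higher in Delta-HER2 cells, among them ACTN1 (1.36), and 1, TNS3, was lower (−0.89). Over all genes 22.8% were called between the lines, 13.4% higher and 9.35% lower. The list median there was −0.040, beside −0.037 over all genes. ACTN4, another actinin gene among the 4 (0.23, adjusted p = 0.0449), was called in 7 of the 19 alternatives and lost without any 1 array other than Delta-HER2 replicate 2 (0.0509 to 0.146). The core activators TLN1, FERMT1 and FERMT2 were not called in any contrast, nor were PTK2 and ILK. For PTK2 the Delta-HER2 difference from control was −0.29 (adjusted p = 0.0555).

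**Figure D2:**
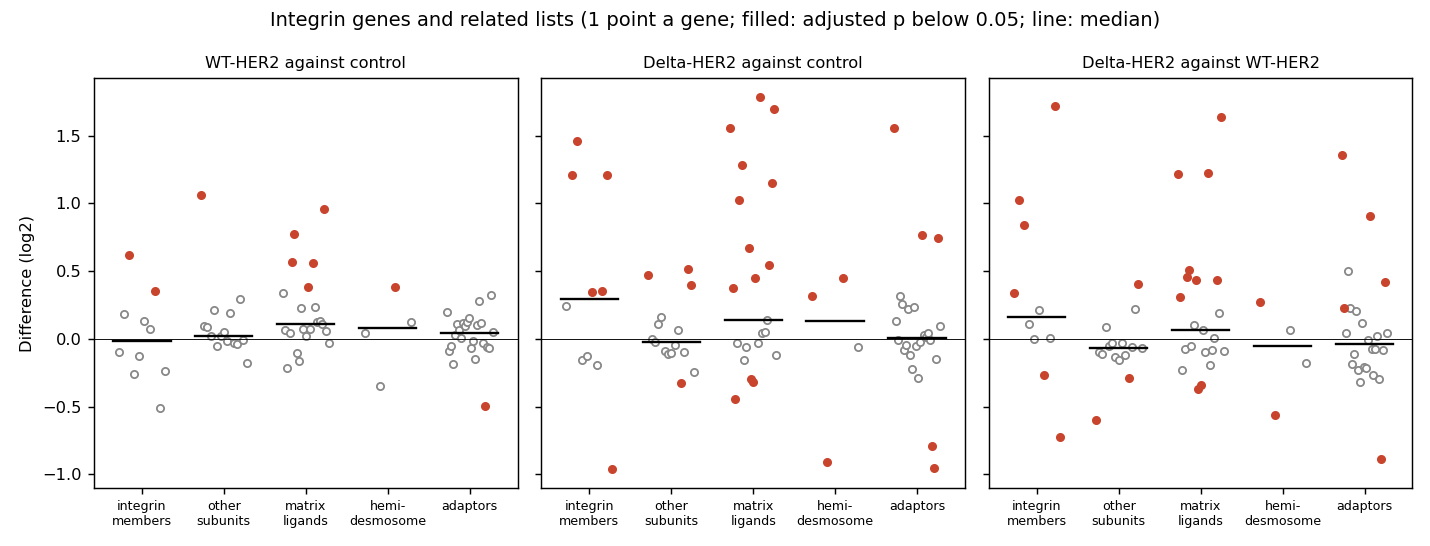
Log2 differences of the 10 integrin genes and of the 4 related lists in the 3 contrasts, 1 point a gene, filled at adjusted p below 0.05, with the list median as a line. The highest point among other subunits with WT-HER2 is ITGA10 (1.07), and the matrix ligands with Delta-HER2 reach 1.79 (LTBP1).

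Profiles most like those of ITGA5 and ITGB6 were sought among 13342 genes above background, as the smallest root mean square distance between centred log2 values over the 9 arrays. Nearest to ITGA5 were PRIM1, a DNA primase gene (distance 0.08; 0.52 with WT-HER2 and 1.41 with Delta-HER2), TIMP1, which inhibits matrix metalloproteinases (0.08; 0.75 and 1.43), and P4HA1, a collagen prolyl hydroxylase gene (0.09; 0.59 and 1.34). Nearest to ITGB6 were NUP107, a nuclear pore gene (0.09; −0.37 and 1.20), PNO1, a ribosome assembly factor gene (0.09; −0.36 and 1.23), and CMC2 (0.11; −0.40 and 1.16). The distances describe these 9 arrays and were not tested.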

How the data were processed

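RNA of 9 MCF10A samples was measured on Affymetrix whole-transcript arrays. The deposited values are log2 levels that the authors made with RMA and affy in R 2.14, per the submitters' processing notes; no genome build is given in the sources used here. RMA summarises the probes of a transcript cluster, so a value does not tell splice forms apart, and its quantile normalization hides shifts that affect all genes. Values were used as deposited. Of 32321 probes (transcript clusters), 19158 had exactly 1 symbol in the array annotation; where a gene had several, the one of highest mean level stood for it, with no filter on low values.

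The comparisons used limma 3.58.1 (R 4.3.3) on all 9 arrays, with 1 coefficient per group (6 residual degrees of freedom, 3.25 prior), two-sided. The median SE of a difference was 0.10, and the number of arrays limits the precision. A simulation of 20 runs drew independent normal noise at the fitted spread and added differences to 200 of 18404 genes. Added differences of 1 were called in 96.7% of cases with WT-HER2 and 97% with Delta-HER2. Smaller added differences were called in 53.4% and 56.5%, and 5.53% and 5.43% of calls were false. The simulation left out shifts shared by the genes of an array, and far more genes than 200 were called with Delta-HER2. Exact permutation tests used SciPy 1.17.1. Alternatives were quantile normalization, median centring, removal of low genes, all probes, probe means, a mean-variance trend, array weights, a replicate block, 2-group fits, each array left out, and control replicate 1 and WT-HER2 replicate 3 left out together.

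The members and lists were chosen with earlier results of these data known. All members are named; of each list, up to 4 called genes with the smallest p, and any that go against the rest; FN1, TNC, the cell markers, TGFB1, PTK2, ILK, TLN1, FERMT1, FERMT2 and genes in counts of 5 or fewer were named after their values were seen, as were the motifs. Some listed genes are not reported here; the counts give how many were analysed.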

Additional observations from a re-analysis of the deposited data

Results flagged for a closer look

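For ITGB6 and ITGB4 every array of one HER2 line lay on one side of the control arrays and every array of the other line on the other side. The share of all genes with this pattern was not counted. In the single contrasts 14.0% of all genes did not overlap with WT-HER2, 37.0% with Delta-HER2 and 34.7% between the lines. For ITGB6 the difference between Delta-HER2 and WT-HER2 cells was 1.72 (limma, adjusted p = 1.05e-05). Its Delta-HER2 difference from control passed, and its WT-HER2 difference, −0.51, did not (adjusted p = 0.0964; −0.36 and 0.124 without WT-HER2 replicate 3). For ITGB4 the difference between the lines was −0.26 (adjusted p = 0.0154; 0.0615 without Delta-HER2 replicate 1), with Delta-HER2 the lower side. Neither of its differences from control, 0.07 and −0.19, passed (adjusted p = 0.756 and 0.0554).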

How the results depend on the processing

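The 19 alternatives changed no call of ITGA3, ITGA5 or ITGB8 in any contrast, nor those of ITGB6 in both contrasts with Delta-HER2 cells and of ITGB5 with Delta-HER2. With WT-HER2 the count of members called, 2, was 1 after median centring, with all probes, with the replicate block, with 2-group fits, with control replicate 1 and WT-HER2 replicate 3 left out together, and without any 1 of the 9 arrays (range 1 to 1); it was 3, with ITGB6 added, after quantile normalization and with array weights. Over all genes that count, 309, was 736 with array weights, 139 with the replicate block, 134 with 2-group fits and 126 to 279 with 1 array left out. The causes were not tested. The replicate numbers were no evident pairing: 1 of 9 arrays correlated best with an array of its own number. The replicate block also lost the calls of ITGB5 with WT-HER2 (adjusted p = 0.143) and of ITGA2 between the lines (0.10), and no other member's. Differences near 0 between the lines changed sign: that of ITGAV was 0.0014 with array weights and −0.024 to 0.022 with 1 array left out (above 0 without WT-HER2 replicate 2 or Delta-HER2 replicate 2), and that of ITGB5 was −0.088 after quantile normalization, −0.034 with array weights, −0.017 with control replicate 1 and WT-HER2 replicate 3 left out, and −0.040 to 0.035 with 1 array left out (below 0 without WT-HER2 replicate 3 or Delta-HER2 replicate 2). Of 324 recomputed pair balances, 2 moved by more than the SD between arrays, both of ITGA6 with ITGB1 after quantile normalization. Some of the 324 could not move. Each member was read by a single transcript cluster, so probe means changed nothing, and neither did leaving out an array of the group outside the contrast. Levels near 3.18 are limited by background.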

Other observations

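The transcript cluster for ITGA1, a collagen-binding alpha chain, is also annotated to PELO, which lies in the same locus, and was left out of the comparisons for that reason. Its values were 5.18, 5.48 and 5.43 in control, 5.50, 5.50 and 5.23 in WT-HER2 and 5.84, 5.55 and 5.74 in Delta-HER2 cells. They cannot be assigned to either gene.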
